A study of Homo sapiens with 16 samples.

Results

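The 29 genes described here encode the enzymes that make cholesterol and fatty acids, the regulators that sense sterols and switch these enzymes on, and 1 sterol carrier. They were chosen by name as genes controlled by the sterol regulatory element binding proteins (SREBPs), by a rule that uses no measured value but was set with earlier results of these data known, and all 29 of 29 were found among the 34228 genes of the count table. The cells were 451Lu-R and 1205Lu-R, established human melanoma cell lines that had acquired resistance to BRAF inhibitors (BRAFi-R) through exposure to rising doses of the inhibitor PLX4032 and kept in 5 μM PLX4032 to hold that resistance. Each received 2.5 μM corin or its vehicle DMSO for 24 h, with 2 libraries per cell line and treatment, so 8 libraries in 4 groups. Corin joins in 1 molecule an inhibitor of the histone deacetylases HDAC1/2 and an inhibitor of the histone demethylase LSD1, and is directed at the CoREST repressor complex that holds both. Every group therefore shares the resistant state, each cell type is represented by a single line, and the sources do not say whether PLX4032 was withdrawn during the 24 h. The question put to the data was how corin changed the transcripts of lipid synthesis in the 2 lines, and whether the lines differed. Libraries held from 9516687 to 11797788 estimated counts, and levels are given as counts per 1000000 (CPM) of each library's total.

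Cells make cholesterol from acetyl-CoA through the mevalonate arm, which ends in farnesyl pyrophosphate, and then through squalene and lanosterol to cholesterol itself. When membrane sterols are low, the chaperone SCAP carries the SREBPs from the endoplasmic reticulum to the Golgi, where they are cut and released to the nucleus. There *SREBF2*'s product acts mostly on cholesterol genes and *SREBF1*'s product mostly on fatty acid genes, with the factors NF-Y and Sp1 bound close by. When sterols are high, INSIG proteins hold SCAP back, and since *INSIG1* is itself an SREBP target, the loop limits itself.

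Promoter sequence from RefSeq (GRCh38.p14), running from 250 bases before to 50 bases after each start, was at hand for 25 of the 29 genes, as 34 windows. *ACAT2*, *FDFT1*, *SQLE* and *FASN* had no window. The stretches shown are upstream bases around the searched letters, from genes that rose at least 2-fold or fell in both lines. *SREBF2* was added as the only gene with a window that matched TCACNCCAC, the 1 spelling of a sterol regulatory element searched here. Other spellings, and bases outside the windows, were not searched. Genes without the letters marked here could not be shown, among them *INSIG2* and *ELOVL6*. The stretches therefore do not compare genes that rose with genes that fell. Capitals mark CCAAT, read as ATTGG on the other strand, TCACNCCAC and TCACGTG, all searched on both strands, and overlapping matches are capitalized as 1 run. Windows of the same gene can overlap. Bases in exons of protein-coding transcripts were left out, except for the TCACGTG site of *INSIG1*. By that rule *TM7SF2* is not shown, although its window holds ATTGG at -74.
SREBF2, chr22:41832962-41833013, plus strand: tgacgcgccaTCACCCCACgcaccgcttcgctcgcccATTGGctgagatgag
DHCR7, chr11:71448436-71448497, minus strand: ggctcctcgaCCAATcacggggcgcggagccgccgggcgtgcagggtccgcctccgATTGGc
STARD4, chr5:111512651-111512706, minus strand: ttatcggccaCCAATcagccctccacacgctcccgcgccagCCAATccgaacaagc
HSD17B7, chr1:162790640-162790664, plus strand: gcggactgagATTGGagggatcagc
INSIG1, chr7:155297698-155297722, plus strand: ccggcctcccATTGGttgcggccgc
INSIG1, chr7:155297812-155297838, plus strand: ccgggcaggcTCACGTGAtgcgggccc
FDPS, chr1:155308680-155308704, plus strand: cagcccttccATTGGtcgtccgtca
NSDHL, chrX:152830825-152830966, plus strand: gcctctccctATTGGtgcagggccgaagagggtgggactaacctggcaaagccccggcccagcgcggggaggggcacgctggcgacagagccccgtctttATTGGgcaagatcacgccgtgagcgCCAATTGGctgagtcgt

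The first 5 genes of that list rose with corin in both lines, and the last 2, *FDPS* and *NSDHL*, fell in both. CCAAT stood in 23 of 34 member windows (67.6%), against 34.61% of all 35116 promoter windows of the same length, and GGGCGG, the GC box, in 31 of 34 (91.2%) against 44.95%. The E-box letters CANNTG stood in 17 of 34 (50%) against 68.68%, and TCACGTG, which contains CACGTG and so also counts as an E-box, in 4 of 34 (11.8%) against 3.71%. TCACNCCAC was met in 1 of 34 windows (2.9%) against 1.13%. In *SREBF2* it began at position -133 from the start, with ATTGG at -106. These are matches of letters in a short window, not tests of binding. Among the 25 genes with a window, the 6 without CCAAT were *PMVK*, *CYP51A1*, *INSIG2*, *SREBF1*, *SCAP* and *ELOVL6*, a group that also held genes that rose in both lines and a gene, *ELOVL6*, that fell in both.

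Marker transcripts set the lines apart without corin. All 8 melanocyte lineage markers were present in 451Lu-R, where their sum under DMSO was 13654 to 13727 CPM, while in 1205Lu-R it was 8.29 to 8.56 CPM and *SOX10*, *TYR* and *TYRP1* were at 0 in both DMSO libraries. 1205Lu-R carried *AXL* at 948 and 976 CPM, and 451Lu-R at 0.222 and 0 CPM. Both lines are labelled melanoma, but melanocyte transcripts were close to absent from 1205Lu-R. Markers of undifferentiated melanoma summed to 4571 to 4593 CPM in 451Lu-R and 11636 to 11672 CPM in 1205Lu-R under DMSO. With corin the melanocyte sum in 451Lu-R was 11702 to 11748 CPM and 7 of its 8 genes fell (87.5%, against 38.6% of all genes). *MITF* went from 782 and 804 to 287 and 286 CPM, while *DCT* rose, from 1666 and 1669 to 2692 and 2658 CPM. In 1205Lu-R the melanocyte sum was 23.2 to 26.5 CPM. The undifferentiated markers then summed to 5729.5 to 5742 CPM in 451Lu-R and 11983 to 12138 CPM in 1205Lu-R. Most of these sums was *VIM*, and the 6 genes all rose in 451Lu-R, against 41.3% of all genes. In 1205Lu-R 3 rose and 3 fell, against 40.4% and 37.8% of all genes. *AXL* fell there to 480.1 and 471 CPM, and *NGFR* rose from 5.60 and 6.12 to 206 and 199 CPM. Their part in the lipid gene changes below was not tested. Blood and epithelial markers summed to at most 6.10 CPM in any library, and endothelial markers to at most 28.2 CPM, the latter mostly *VWF*, at 19.0 and 17.8 CPM in 1205Lu-R with corin. In bulk RNA, fewer cells with a transcript and less transcript per cell cannot be told apart.

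Corin raised most of the 29 genes in 451Lu-R and a smaller number in 1205Lu-R. In 451Lu-R, 23 of 29 rose (79.3%) and 4 fell (13.8%) at an adjusted p under 0.05 (edgeR quasi-likelihood test, Benjamini-Hochberg over all genes), whereas among all 14530 genes tested the shares were 41.3% and 38.6%. The other line, 1205Lu-R, had 17 members that rose (58.6%) and 10 that fell (34.5%), against 40.4% and 37.8% of 14563 genes. At least 2-fold rises numbered 10 in 451Lu-R (34.5%) and 7 in 1205Lu-R (24.1%, against backgrounds of 22.2% and 22%), and 0 members fell 2-fold in either line by edgeR or DESeq2 (backgrounds 13.3% and 9.8%), with *ACAT2* nearest at 1.94-fold and 1.98-fold lower whatever the p. In 1205Lu-R the share that fell and the share that rose at least 2-fold thus lay near the background, while the share that rose at all lay above it in both lines. Over the 29 genes the log2 fold change had a median of 0.59 in 451Lu-R, compared with 0.33 in 1205Lu-R, and over all genes 0.03 in each line. Fold changes are scaled by TMM, which uses the bulk of genes as its reference, whereas CPM use the library total only, so small fold changes need not match the CPM printed beside them. No label says whether the 2 libraries of a group came from separate cultures, so p-values measure only the spread between them. Where libraries are said below not to overlap, this only describes the printed values. How often it held over all genes was not counted.

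**Figure D1:**
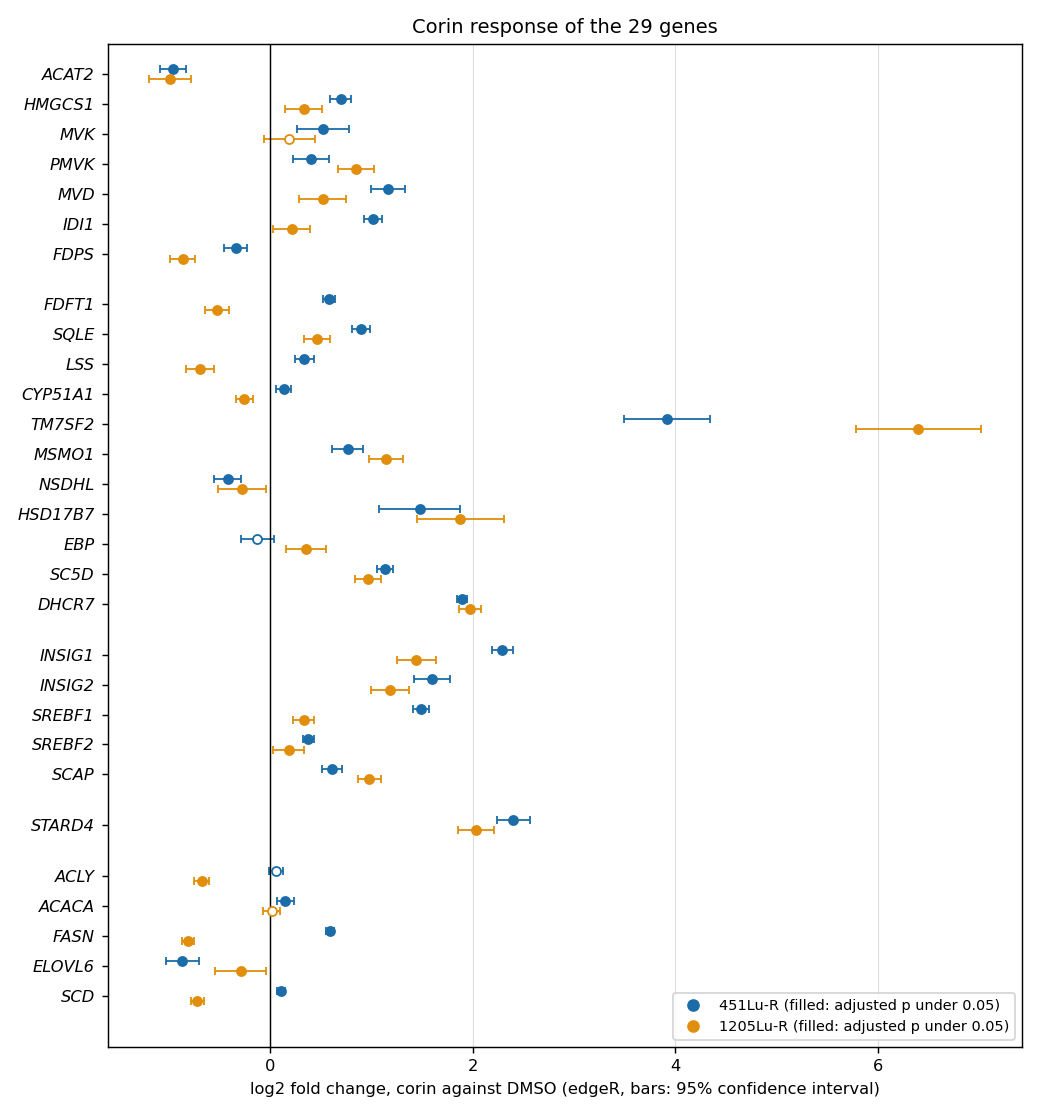
Log2 fold change (x axis) of corin against DMSO for each of the 29 genes (y axis, in pathway order), with blue for 451Lu-R, orange for 1205Lu-R and bars for the 95% confidence interval from 2 against 2 libraries. *TM7SF2* lies farthest to the right in both lines, and the fatty acid genes at the bottom lie left of 0 in 1205Lu-R except for *ACACA*, at 0.01.

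In the mevalonate arm, corin raised 5 of 7 genes in 451Lu-R (71.4%, against 41.3% of all genes) and 4 of the 7 in 1205Lu-R (57.1%, against 40.4%). The same pair fell in both lines (28.6%, against 38.6% and 37.8% of all genes). *HMGCS1*, which makes HMG-CoA, stood at 64.9 and 62.1 CPM with DMSO and 97.2 and 95.3 CPM with corin in 451Lu-R, and at 21.8 and 23.8 and then 29.5 and 30.7 CPM in 1205Lu-R. The treated libraries lay above the controls in both lines, with log2 fold changes of 0.70 ± 0.05 (SE, n = 2 against 2, edgeR adjusted p = 1e-10) and 0.33 ± 0.087 (0.00159), the latter not called under DESeq2 (adjusted p = 0.0576). *MVD*, the decarboxylase that makes isopentenyl pyrophosphate, went from 22.3 and 23.6 to 45.9 and 50.3 CPM in 451Lu-R and from 15.9 and 13.2 to 21.1 and 22.8 CPM in 1205Lu-R. It thus rose 2.24-fold and 1.43-fold. *IDI1*, which isomerizes that product, rose 2.02-fold in 451Lu-R, from 77.5 and 73.7 to 145 and 141 CPM. In 1205Lu-R it went from 22.7 and 22.6 to 28.9 and 26.4 CPM, 1.16-fold (edgeR adjusted p = 0.0357), a call that was lost under DESeq2 (adjusted p = 0.242), with no filter on low counts (edgeR adjusted p = 0.168) and without each of 3 libraries in turn, 1205Lu-R DMSO replicate 1 (edgeR adjusted p = 0.0953), DMSO replicate 2 (0.133) and corin replicate 1 (0.254).

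The arm holds 2 kinases. *PMVK*, which phosphorylates mevalonate phosphate, rose 1.32-fold in 451Lu-R and 1.80-fold in 1205Lu-R, where its libraries read 20.8 and 18.9 and then 37.2 and 38.1 CPM. *MVK*, which phosphorylates mevalonate itself, rose 1.43-fold in 451Lu-R, from 12.7 and 16.5 to 20.5 and 18.0 CPM, and in 1205Lu-R had a log2 fold change of 0.19 ± 0.12 (SE), which did not pass (edgeR adjusted p = 0.153) but did with library size only (0.0493) or without 1205Lu-R DMSO replicate 2 (0.0241).

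Both ends of the arm fell. *ACAT2*, which joins 2 acetyl-CoA at the entry, dropped from 82.1 and 81.4 to 38.0 and 40.8 CPM in 451Lu-R and from 28.1 and 29.3 to 14.0 and 16.3 CPM in 1205Lu-R, 1.94-fold and 1.98-fold lower. *TCP1* on the other strand covers 17.2% of its exon bases and held 35342 counts over the 8 libraries, and the sources used here do not say whether strand was used in counting. *FDPS*, which makes farnesyl pyrophosphate, fell 1.26-fold in 451Lu-R, from 86.5 and 91.5 to 63.3 and 68.2 CPM, and 1.82-fold in 1205Lu-R, from 74.7 and 76.4 to 41.4 and 45.7 CPM. No treated library of either gene overlapped its controls.

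Between squalene and cholesterol, 451Lu-R showed 9 of 11 genes raised (81.8%, against 41.3% of all genes) and 1 lowered (9.09%, against 38.6%). In 1205Lu-R 7 were raised (63.6%, against 40.4%) and 4 lowered (36.4%, near the 37.8% of all genes). *DHCR7*, the reductase that makes cholesterol from its last precursor, rose in both. It stood at 287 and 295 CPM with DMSO and 1007 and 1012 CPM with corin in 451Lu-R, and at 39.3 and 44.6 and then 169 and 177 CPM in 1205Lu-R. In 1205Lu-R even the corin libraries stayed below the DMSO ones of 451Lu-R, yet the rise was 3.92-fold there and 3.72-fold in 451Lu-R. The log2 fold changes differed by 0.04 (95% confidence interval -0.10 to 0.18; edgeR interaction adjusted p = 0.695).

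*TM7SF2*, a sterol C14-reductase, had the largest fold change of the 29 genes in both lines. In 451Lu-R it stood at 1.28 and 1.03 CPM with DMSO and 16.2 and 17.1 CPM with corin, and in 1205Lu-R at 0.0904 and 0.282 and then 16.6 and 18.1 CPM. The lines ended at almost the same level from starts that were both low. The 1205Lu-R controls held 4 counts in all and the treated libraries 359, a ratio of CPM of 94.3 with a 95% exact counting interval of 36.5 to 348, which covers counting error only. The corresponding ratio in 451Lu-R was 14.2 (9.41 to 22.5), from 24 and 362 counts. By log2 fold change *TM7SF2* ranked 914 from the top of 14530 genes in 451Lu-R. In 1205Lu-R its fitted log2 fold change ran from 5.80 to 7.33 when 1 library was left out, and no rank is given. 18 of its exon bases are shared with *VPS51* on the same strand.

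4 further enzymes of this stretch rose in both lines. *SC5D*, the lathosterol desaturase, went from 97.8 and 92.4 to 197 and 194 CPM in 451Lu-R and from 38.3 and 36.3 to 80.6 and 73.3 CPM in 1205Lu-R, 2.20-fold and 1.95-fold. *SQLE*, the squalene epoxidase and a controlling step of the pathway, read 111 and 110.2 and then 199.7 and 185 CPM in 451Lu-R and 42.8 and 42.9 and then 65.4 and 59.2 CPM in 1205Lu-R. These were rises of 1.86-fold and 1.38-fold. *MSMO1*, a C4-methylsterol oxidase, rose 1.70-fold in 451Lu-R and 2.21-fold in 1205Lu-R, where its libraries read 19.7 and 23.0 and then 51.1 and 48.3 CPM. *HSD17B7*, the 3-ketosteroid reductase of C4 demethylation, rose 2.78-fold and 3.68-fold from low levels, 3.68 and 4.22 CPM with DMSO and 11.5 and 8.75 CPM with corin in 451Lu-R, and 2.53 and 2.39 and then 8.45 and 10.5 CPM in 1205Lu-R. In none of these genes did treated and control libraries overlap.

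Squalene synthase and lanosterol synthase took opposite directions in the 2 lines. *FDFT1*, the squalene synthase that commits carbon to sterols, went from 319 and 327 up to 440.1 and 464 CPM in 451Lu-R, and from 76.8 and 76.5 down to 59.5 and 53.0 CPM in 1205Lu-R. The rise was 1.497-fold (edgeR adjusted p = 2.19e-13) and the fall 1.44-fold (2.07e-08). *LSS*, which closes the ring to lanosterol, rose 1.26-fold in 451Lu-R, from 81.5 and 80.6 to 96.0 and 95.4 CPM, and fell 1.62-fold in 1205Lu-R, from 61.2 and 56.9 to 40.2 and 36.8 CPM. In each of these 4 contrasts the groups did not overlap. *CYP51A1*, the lanosterol demethylase, moved little, with 0.13 in 451Lu-R and -0.26 in 1205Lu-R on the log2 scale. It read 158 and 157 and then 160.1 and 162 CPM in the first line and 168 and 161 and then 151 and 139 CPM in the second. Its rise in 451Lu-R did not hold when counts were scaled by library size only (log2 fold change 0.03, edgeR adjusted p = 0.366). It shares 68.2% of its exon bases with an unnamed protein-coding gene that held 27.5 counts in all 8 libraries.

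*NSDHL*, the C4 decarboxylase, fell in both lines. It went from 61.5 and 58.7 to 42.9 and 40.9 CPM in 451Lu-R, 1.34-fold. In 1205Lu-R it read 17.3 and 20.8 and then 17.1 and 15.9 CPM, with little room between the groups, and the 1.22-fold fall (edgeR adjusted p = 0.0284) was not called under DESeq2 (adjusted p = 0.217), with scaling by library size only (edgeR adjusted p = 0.101) or without 1205Lu-R DMSO replicate 2 (0.239) or corin replicate 2 (0.109). *EBP*, the sterol isomerase, rose 1.27-fold in 1205Lu-R, from 27.4 and 21.6 to 34.0 and 31.97 CPM, but not without its DMSO replicate 2 (edgeR adjusted p = 0.136). In 451Lu-R its log2 fold change was -0.13 (edgeR adjusted p = 0.138), and with library size only it fell there by 0.22 (0.0115).

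All 5 regulators of the SREBP system were called as risen in both lines, against 28.8% of all genes, though the call for *SREBF2* in 1205Lu-R was weak (below). In each line alone, 41.3% and 40.4% of all genes rose. The *INSIG* genes, which act as brakes, had the largest fold changes among the 5, but in 451Lu-R *INSIG2* at 3.02-fold was close to *SREBF1* at 2.81-fold. *INSIG1* stood at 41.8 and 48.6 CPM with DMSO and 208 and 204 CPM with corin in 451Lu-R, and at 12.9 and 12.9 and then 35.6 and 38.2 CPM in 1205Lu-R. Its rise was 4.90-fold (edgeR adjusted p = 7.23e-19) and 2.72-fold (4.65e-12). *INSIG2*, its relative that holds SCAP in the same way, went from 14.9 and 16.7 to 44.03 and 44.6 CPM in 451Lu-R and from 15.5 and 14.4 to 35.6 and 35.7 CPM in 1205Lu-R. For both genes every treated library lay above every control.

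Of the 2 SREBP genes, *SREBF1* rose 2.81-fold in 451Lu-R, from 93.9 and 88.5 to 244 and 235 CPM. In 1205Lu-R it rose 1.26-fold, from 65.4 and 61.2 to 83.6 and 84.1 CPM. *SREBF2* changed less, 1.30-fold in 451Lu-R, from 302 and 307 to 364 and 374 CPM. In 1205Lu-R it read 45.0 and 38.8 and then 52.4 and 47.9 CPM, groups whose nearest libraries were 45.0 and 47.9 CPM. The 1.13-fold rise there (edgeR adjusted p = 0.0308) was lost under DESeq2 (adjusted p = 0.186), with no filter on low counts (edgeR adjusted p = 0.124), and without 1205Lu-R DMSO replicate 2 (edgeR adjusted p = 0.538) or corin replicate 1 (0.191). *SCAP*, the SREBP escort, rose 1.53-fold and 1.97-fold, from 52.3 and 46.1 to 106 and 99.2 CPM in 1205Lu-R.

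*STARD4*, a soluble sterol carrier, rose in both lines. It went from 19.4 and 16.9 to 87.0 and 92.8 CPM in 451Lu-R and from 12.6 and 11.5 to 50.9 and 52.5 CPM in 1205Lu-R. With 5.28-fold (edgeR adjusted p = 2.13e-16) and 4.08-fold (2.71e-15) it had the second-largest fold change of the 29 genes in each line.

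The 5 fatty acid genes were mixed in 451Lu-R and mostly lower with corin in 1205Lu-R. A rise in 451Lu-R with a fall in 1205Lu-R, as in *FDFT1*, *LSS* and *CYP51A1* above, was called for *FASN* and *SCD* too. In 451Lu-R corin raised 3 of the 5 (60%, against 41.3% of all genes) and lowered 1 (20%, against 38.6%). In 1205Lu-R it raised 0 (against 40.4%) and lowered 4 by edgeR (80%, against 37.8%). There 0 were raised also at an unadjusted p under 0.05 and under DESeq2. *FASN*, the fatty acid synthase, stood at 1080.4 and 1060.2 CPM with DMSO and 1493 and 1516 CPM with corin in 451Lu-R, and at 632 and 639 and then 376 and 385 CPM in 1205Lu-R. It therefore rose 1.51-fold (edgeR adjusted p = 1.55e-16) in 1 line and fell 1.76-fold (6.13e-17) in the other, with no overlap between groups in either. *SCD*, the desaturase that makes oleic acid from stearic acid, fell 1.65-fold in 1205Lu-R, from 350.02 and 351 to 221 and 226 CPM. In 451Lu-R it read 838 and 852 and then 849.9 and 849.6 CPM, where the groups overlapped, and its called rise of 0.11 on the log2 scale became 0.01 with scaling by library size only (edgeR adjusted p = 0.661).

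*ACLY*, which makes cytosolic acetyl-CoA from citrate, fell 1.60-fold in 1205Lu-R, from 279.7 and 291 to 189 and 186 CPM. In 451Lu-R it read 205 and 196 and then 195 and 195 CPM, a log2 fold change of 0.05 that did not pass (edgeR adjusted p = 0.125). *ELOVL6*, which lengthens palmitic acid, fell 1.83-fold in 451Lu-R, from 44.9 and 43.0 to 23.0 and 21.9 CPM. Its 1.22-fold fall in 1205Lu-R (edgeR adjusted p = 0.0343) was lost under DESeq2 (adjusted p = 0.258), with library size only (edgeR adjusted p = 0.11) and without 1205Lu-R DMSO replicate 1 (0.181), corin replicate 1 (0.0749) or corin replicate 2 (0.079). *ACACA*, the acetyl-CoA carboxylase that commits carbon to fatty acids, kept close to its controls, with 0.15 in 451Lu-R (edgeR adjusted p = 0.0021) and 0.01 in 1205Lu-R (0.793) on the log2 scale. The call in 451Lu-R was lost under DESeq2 (adjusted p = 0.0575) and with library size only (edgeR adjusted p = 0.239).

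**Figure D2:**
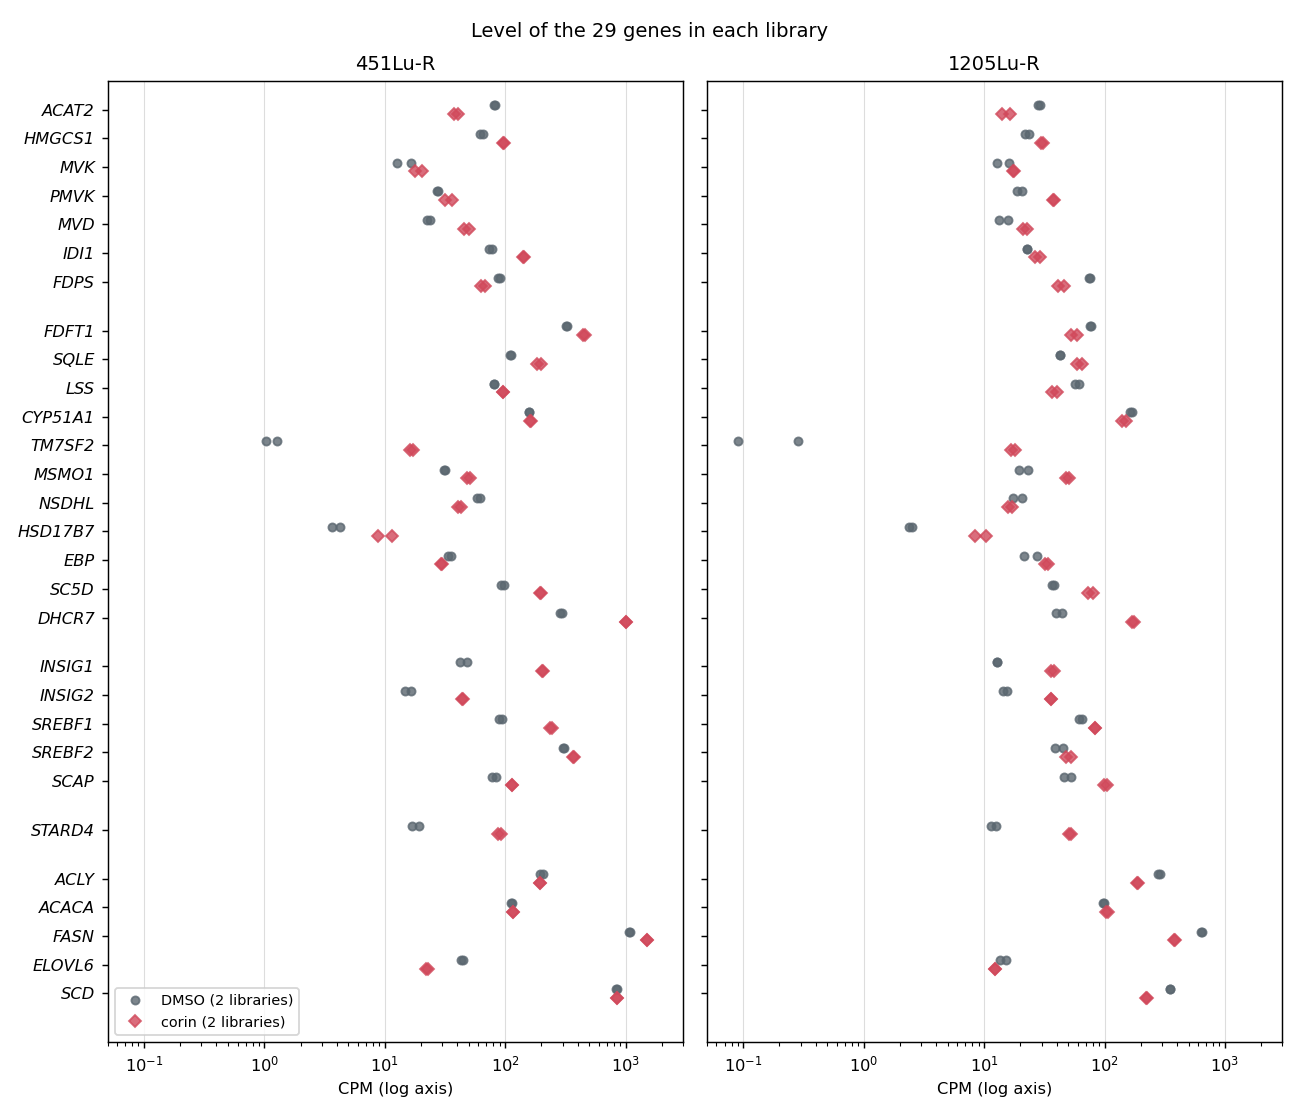
CPM on a log axis for each of the 29 genes in each library, with 451Lu-R on the left, 1205Lu-R on the right, grey circles for DMSO and red diamonds for corin. *TM7SF2* in 1205Lu-R with DMSO lies lowest and its replicates apart, at 0.0904 and 0.282 CPM, and *FASN* sits to the right of its controls in 451Lu-R and to the left of them in 1205Lu-R.

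Summed over roles, transcripts of the 18 cholesterol enzymes were higher with corin in both lines while the sum of the 5 fatty acid genes was higher in 451Lu-R, through *FASN*, and lower in 1205Lu-R. The cholesterol enzymes summed to 1559 and 1570 CPM with DMSO and 2694 and 2704 CPM with corin in 451Lu-R, and to 689.9 and 687 and then 882 and 861 CPM in 1205Lu-R. That is 1.73 ± 0.0091 times the controls in 451Lu-R and 1.27 ± 0.022 times in 1205Lu-R (SD, n = 2 against 2). The fatty acid genes summed to 2279.5 and 2265 and then 2677 and 2699 CPM in 451Lu-R, 1.18 ± 0.0088 times the controls, and to 1375 and 1395 and then 902 and 916 CPM in 1205Lu-R, 0.656 ± 0.0096 times. *DHCR7* alone accounted for 719 of the 1135 CPM gained by the cholesterol enzymes in 451Lu-R and for 131 of 183 CPM in 1205Lu-R, and without it the ratios were 1.33 and 1.08. *FASN* gained 435 CPM in 451Lu-R where the fatty acid genes together gained 416, and the other 4 genes stood at 0.985 times their controls there and 0.705 times in 1205Lu-R. The SREBP regulators stood at 1.81 ± 0.034 times in 451Lu-R and 1.70 ± 0.12 times in 1205Lu-R. The mevalonate arm stood at 1.19 ± 0.0048 times in 451Lu-R, and in 1205Lu-R its libraries overlapped, at 197 and 200.4 CPM with DMSO and 189 and 198 CPM with corin. Per length (counts per kilobase of exon, scaled to 1000000 in each library) this turned, with overlap in 451Lu-R, at 462 and 459.9 and then 468 and 458, and a gap in 1205Lu-R, at 286 and 283 and then 299 and 311. All 29 genes together took 4389 and 4396 and then 6432 and 6468 CPM in 451Lu-R, against 2268 and 2267 and then 2148 and 2134 CPM in 1205Lu-R. These sums are given as a description and were not tested. With 2 libraries in each group an exact permutation test could not have passed 0.05.

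**Figure D3:**
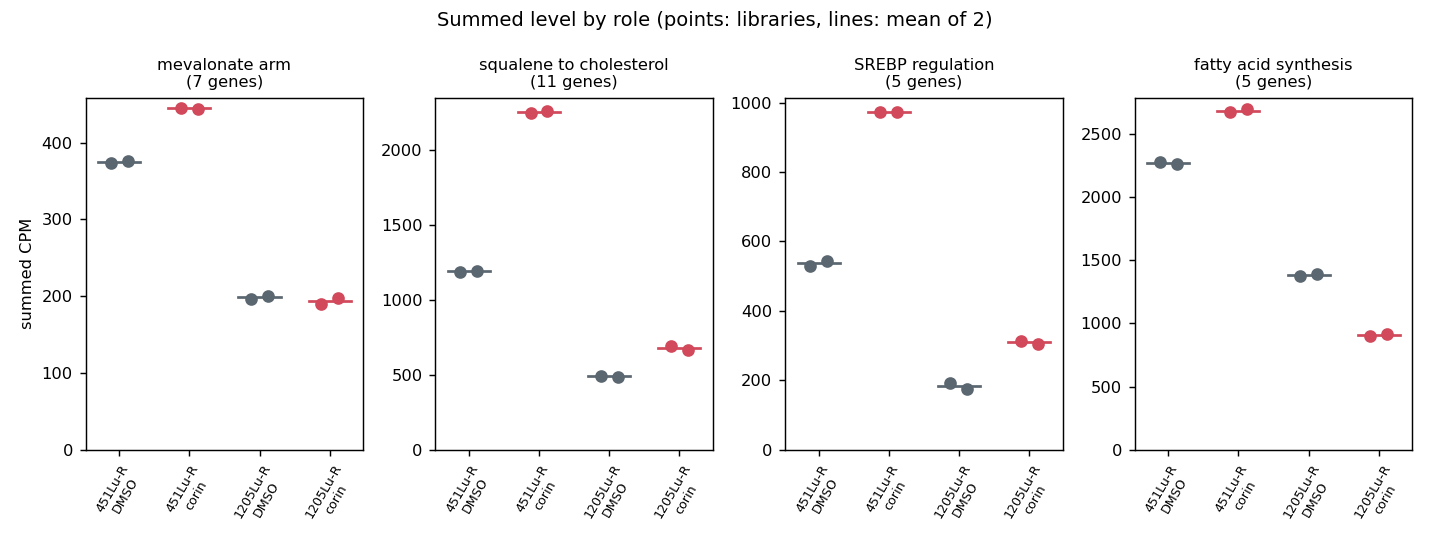
Summed CPM (y axis, from 0) of the genes of 4 roles in each of the 8 libraries, with points for libraries and lines for the mean of 2, grey for DMSO and red for corin. Fatty acid synthesis stands at 2677 and 2699 CPM with corin in 451Lu-R and at 902 and 916 CPM in 1205Lu-R, above and below the controls of the same line.

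The response to corin differed between the lines for most of the 29 genes. In the test of the difference itself (interaction term, 16062 genes), 18 genes had a lower log2 fold change in 1205Lu-R and 6 a higher one, against 27.1% and 22.6% of all genes. The sign is that of the difference and not of the size of the change: *FASN*, *LSS*, *SCD*, *ACLY*, *CYP51A1* and *FDPS* are among the 18 and changed more in 1205Lu-R, downward, and *ELOVL6* is among the 6 because it fell less there. At least 2-fold differences were reached by 4 of the 29 genes downward (13.8%, against 9.46% of all genes) and 1 upward (3.4%, against 9.34%). The downward share thus lay near the background. With scaling by library size only, the median of all genes in this contrast moved from -0.01 to 0.20 and the calls over all genes went from 45.4% upward to 64% upward, and 12 members were then lower and 8 higher. The 4 genes at least 2-fold lower in this difference were *FASN*, at -1.44 ± 0.034 (SE) on the log2 scale, *SREBF1*, at -1.19 ± 0.069, *FDFT1*, at -1.15 ± 0.072, and *LSS*, at -1.07 ± 0.078. Library size only left 1 of them past 2-fold. The single 2-fold difference upward was *TM7SF2*, whose 2.44 ± 0.59 rests on the 4 counts of its 1205Lu-R controls.

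Directions were opposite in the 2 lines for 5 of the 29 genes (17.2%), each rising in 451Lu-R and falling in 1205Lu-R, a pattern met in 5.96% of the 13200 genes tested in both. These were *FDFT1*, *LSS*, *CYP51A1*, *FASN* and *SCD*, of which *CYP51A1* and *SCD* lost the rise in 451Lu-R with library size only. No member went the other way, though with library size only *EBP* did. Rises in both lines were called for 16 genes (55.2%, against 28.8% of all genes) and falls in both for 4 (13.8%, against 28.5%). For *ACAT2*, *MVK*, *NSDHL*, *HSD17B7* and *DHCR7* the difference between lines did not pass, although with library size only it did for *DHCR7* (0.25 on the log2 scale, edgeR adjusted p = 0.00478) and *NSDHL* (0.31, 0.0407). The 95% confidence interval on the log2 scale under TMM ran from -0.30 to 0.16 for *ACAT2*, from -0.74 to 0.01 for *MVK*, from -0.16 to 0.36 for *NSDHL* and from -0.28 to 1.01 for *HSD17B7*.

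**Figure D4:**
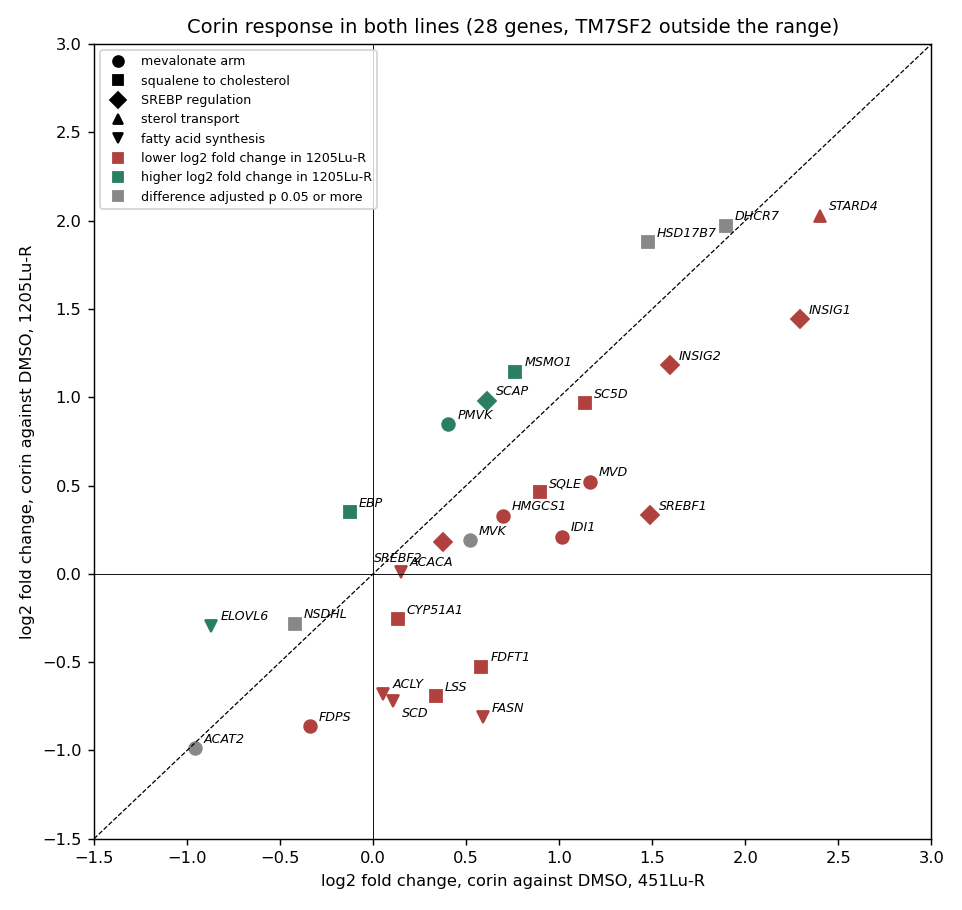
Log2 fold change of corin against DMSO in 451Lu-R (x axis) and 1205Lu-R (y axis) for 28 of the 29 genes, with shapes for roles, red for a lower and green for a higher log2 fold change in 1205Lu-R at an adjusted p under 0.05, and a dashed line of equal response. Most points lie below the line, and *FASN*, *FDFT1* and *LSS* lie to the right of 0 and below 0. *TM7SF2* lies outside the range drawn, at fitted values of 3.92 and 6.40.

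Without corin the 29 genes were mostly lower in 1205Lu-R. Under DMSO, 24 of 29 (82.8%) were lower in 1205Lu-R and 2 higher, against 41.5% lower and 41% higher among 14104 genes, and 13 were at least 2-fold lower (background 21.8%) while 0 were 2-fold higher by edgeR or DESeq2 (background 19.6%). The largest gaps were in *SREBF2*, 6.74-fold lower at 45.0 and 38.8 CPM against 302 and 307 CPM, in *DHCR7*, 6.44-fold lower, and in *FDFT1*, 3.92-fold lower. By fitted value *TM7SF2* stood between these, but both its 1205Lu-R libraries held 3 counts or fewer. *ACLY* was 1.53-fold higher in 1205Lu-R and *CYP51A1* 1.12-fold, the latter not with library size only (edgeR adjusted p = 0.124). *MVK*, *INSIG2* and *ACACA* did not pass.

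Under corin, which shares no library with the DMSO comparison, 24 of 29 were again lower in 1205Lu-R and 0 were higher, against 40.2% and 39% of 15363 genes. The count of higher genes was also 0 under DESeq2 and, by edgeR, at an unadjusted p under 0.05. At least 2-fold lower were 15 (background 19.9%), and 0 were 2-fold higher (background 18.6%). The median log2 difference over the 29 genes was -0.60 under DMSO and -1.21 under corin, while the medians of all genes were both -0.01. *FDFT1* was then 8.57-fold lower, *SREBF2* 7.84-fold, *DHCR7* 6.21-fold and *FASN* 4.204-fold. *ACLY*, higher in 1205Lu-R under DMSO, was 1.11-fold lower there under corin, with libraries at 189 and 186 CPM against 195 and 195 CPM, a call lost with library size only (edgeR adjusted p = 0.119). *PMVK*, *TM7SF2*, *MSMO1*, *HSD17B7* and *EBP* did not pass, and for *TM7SF2* the difference was -0.02 on the log2 scale (95% confidence interval -0.24 to 0.20). The melanocyte marker sum given above differed between the lines in the same direction in both comparisons, and its part in these differences was not tested.

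Compared on that per-length scale, *SCD* and *FASN* were the top pair of the 29 genes in every group. Their level in 451Lu-R with DMSO was 641 and 457, and in 1205Lu-R with DMSO 295 and 301. *DHCR7* held rank 4 in 451Lu-R with DMSO at 168 and came to 538 with corin, rank 3, next to *FASN* at 592 and *SCD* at 594, which overlapped each other there. In 1205Lu-R *DHCR7* went from rank 17, at 26.9, to rank 6, at 106. *TM7SF2* was last of 29 in both DMSO groups, at 1.35 and 0.24, and at rank 26 and 24 with corin, at 17.9 and 21.4, in 1205Lu-R overlapping the gene above it. *ACAT2* went the other way, from rank 8 to 20 in 451Lu-R and from 9 to 22 in 1205Lu-R.

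Genes around these pathways were counted from lists written with earlier results of these data known, and their counts are to be read against the shares of all genes that rose (41.3% in 451Lu-R, with 40.4% in 1205Lu-R) and fell (38.6% and 37.8%). In the isoprenoid branch, which uses farnesyl pyrophosphate for prenylation, ubiquinone and dolichol, 10 of 15 genes fell and 3 rose in 451Lu-R, and 9 fell and 3 rose in 1205Lu-R. *PGGT1B*, a subunit of a protein prenyltransferase, fell by 0.92 and 0.99 on the log2 scale, with 451Lu-R given first here and in the pairs of values that follow. *PDSS2*, of ubiquinone synthesis, fell by 0.88 in 1205Lu-R. The median of this list was -0.43 in 451Lu-R and -0.74 in 1205Lu-R, below the 0.03 of all genes.

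Among 10 genes that process SREBPs or turn them over, 451Lu-R had 4 raised and 4 lowered by corin, and 1205Lu-R had 5 raised and 3 lowered. *MBTPS2*, the site-2 protease that frees the SREBP domain, fell by 0.90 and 0.66, from 36.1 and 32.4 to 17.5 and 16.7 CPM in 451Lu-R. *PAQR3*, which tethers SCAP at the Golgi, rose by 1.06 and 0.42, and the ubiquitin ligase gene *RNF139* by 0.71 and 0.37. The list's median was -0.01 and 0.07, close to that of all genes.

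Of 23 other genes of fatty acid synthesis, elongation and desaturation tested in 451Lu-R, 14 rose and 6 fell, and of 22 in 1205Lu-R 14 rose and 7 fell. Named for their size of change, the elongase genes *ELOVL7* rose by 2.23 and 4.39 and *ELOVL4* by 3.64 and 1.85, the latter from 4.22 and 4.24 to 47.8 and 51.2 CPM in 451Lu-R. *ELOVL2* rose by 0.44 and 3.46, the latter from 1.54 and 0.659 CPM in 1205Lu-R. But *ELOVL1*, chosen after its values were seen, went from 91.5 and 92.4 to 51.03 and 50.7 CPM in 451Lu-R. In fatty acid activation and glycerolipid entry, 8 rose and 6 fell of 14 in 451Lu-R, and 8 rose and 3 fell of 14 in 1205Lu-R. *DGAT2*, which makes triglycerides, rose by 5.73 in 451Lu-R, from 1.28 and 0.62 to 49.7 and 47.7 CPM, and by 0.55 in 1205Lu-R. *ACSL3*, which activates fatty acids, rose by 1.56 and 1.10, and *ACSL6* by 3.42 and 3.19 from under 1.10 CPM. These 2 lists had medians of 0.45 and 0.36 in 451Lu-R, with 0.44 and 0.34 in 1205Lu-R.

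In sterol uptake, transport and storage, 10 of 19 genes were raised and 8 lowered in 451Lu-R, compared with 9 raised and 8 lowered in 1205Lu-R, with *GRAMD1B* and *GRAMD1C*, which move cholesterol inward from the plasma membrane, rising by 2.70 and 2.87 in 451Lu-R, where the values for 1205Lu-R were 2.68 and 1.95. The 451Lu-R controls of *GRAMD1B* were low, at 1.10 and 0.828 CPM. *STARD5*, another soluble carrier, rose by 1.51 and 2.80, the latter from 0.542 and 0.188 to 3.26 and 2.34 CPM in 1205Lu-R. Among liver X receptors, which answer to oxysterols, partner receptors, some targets and oxysterol enzymes, 3 rose and 7 fell of 11 in 451Lu-R. In 1205Lu-R 4 rose and 4 fell of 9. This list is mixed, so its counts and median do not describe the targets alone. *ABCG1*, a sterol exporter, rose by 5.35 and 3.60, while *CYP27A1*, which makes an oxysterol, fell by 2.48 and 0.96. The *ABCG1* controls of 451Lu-R stood near the floor, at 0.0938 and 0.427 CPM, and its corin libraries at 9.47 and 10.0 CPM, so the size of that rise is uncertain. *CYP7B1*, which degrades oxysterols, fell from 133 and 135 to 28.1 and 24.5 CPM in 451Lu-R, and in 1205Lu-R had at most 1.16 CPM in any library, with the controls at 0.0904 and 0 CPM. The list's median was -0.68 in 451Lu-R and 0.42 in 1205Lu-R on the log2 scale, and that of sterol transport 0.18 and 0.14. The raised and lowered shares of sterol transport genes, 52.6% and 42.1% in 451Lu-R, 47.4% and 42.1% in 1205Lu-R, lay near those of all genes. Of the fatty acid oxidation genes, 7 rose and 5 fell of 17 in 451Lu-R, where the 41.2% that rose matched the background, and 9 rose and 4 fell of 16 in 1205Lu-R. *CPT1A*, the gate of mitochondrial import, rose by 2.05 and 0.85, *ACADS* by 0.93 and 1.63 and *EHHADH* by 0.25 and 1.01, and the median was 0.12 in 451Lu-R, against 0.30 in 1205Lu-R.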

How the data were processed

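Polyadenylated RNA from both melanoma lines, with corin or DMSO, was sequenced in 8 libraries. The authors used Trimmomatic to trim the paired reads and Salmon, with GENCODE v32 transcripts (hg38), to quantify them, and deposited estimated counts per gene; software versions and strand settings are not given in the sources used here. Estimated counts were rounded to whole numbers. 2 further deposited tables hold the authors' own fold changes and adjusted p-values for PLX4032 with corin against PLX4032 and were not used, and the other 8 samples of the series, which those tables summarize, were not analysed here. No column of per-sample values was left unmapped.

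Of 34228 genes, 34052 matched a symbol in the GENCODE 44 reference. Genes with enough counts (filterByExpr) were scaled by TMM and tested within each cell line, each treatment and, for the interaction, all 8 libraries, with edgeR 4.0.16 quasi-likelihood tests in R 4.3.3 (limma 3.58.1). P-values were adjusted by Benjamini-Hochberg over all genes tested, and a gene was called at an adjusted p under 0.05. The procedure was tested on simulated counts. At a true 2-fold change it recovered 79 of 95 genes in 451Lu-R, 85 of 99 in 1205Lu-R and 70 of 94 for the interaction. At a true 4-fold change it recovered 92 of 96, 93 of 93 and 79 of 96 in the same order. False calls numbered 17, 14 and 19, in each case a larger share of the calls than the 0.05 aimed at. Far fewer genes changed there than in these libraries, so the choice of scaling was not tested. Replicates differed by more than sampling noise, with a chi-square per degree of freedom of 1.34 to 1.41. CPM are counts per 1000000 of the library total, libraries holding 9516687 to 11797788 counts, and a count of 3 or fewer per library was taken as the floor. Counting intervals cover counting error only.

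The 29 genes and all lists were chosen with earlier results of these data known. All 29 are named. From each of the 7 lists of related genes, up to 3 are named, those with the largest absolute fold change in either line among called genes with a mean of at least 1 CPM. A gene that this rule would name is not reported here. Marker genes were named freely. Alternatives were DESeq2 1.42.0, scaling by RLE or by library size only, filters of none or of a 1 CPM mean, an adjusted p under 0.001, a fit of all 8 libraries, each library left out, and the replicate number as a block. Motifs were searched in RefSeq promoter windows of 300 bases (GRCh38.p14).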

Additional observations from a re-analysis of the deposited data

Results flagged for a closer look

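For 24 of the 29 genes the response to corin differed between the lines in the test of the difference itself (edgeR interaction term, Benjamini-Hochberg adjusted p under 0.05). Among all 16062 genes tested, 27.1% were called lower and 22.6% higher in 1205Lu-R. Values are the log2 fold change in 1205Lu-R minus that in 451Lu-R, from 2 libraries in each of 4 groups.

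A negative value can be a smaller rise, a fall in place of a rise, or a larger fall in 1205Lu-R. Among cholesterol enzymes with a lower log2 fold change in 1205Lu-R, *FDFT1* differed by -1.15, *LSS* by -1.07, *IDI1* by -0.84, *MVD* by -0.68, *FDPS* by -0.56, *SQLE* by -0.47, *CYP51A1* by -0.43, *HMGCS1* by -0.41 and *SC5D* by -0.21. The difference in *SC5D* was lost without each of 4 libraries in turn, 451Lu-R DMSO replicate 2 (edgeR adjusted p = 0.0954), 451Lu-R corin replicate 1 (0.0922), 1205Lu-R DMSO replicate 1 (0.16) and 1205Lu-R corin replicate 2 (0.26), and under DESeq2 (adjusted p = 0.119). That in *HMGCS1* was lost with library size only (edgeR adjusted p = 0.0952).

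A higher log2 fold change in 1205Lu-R was called for 4 of the 18 cholesterol enzymes, close to the 22.6% of all genes. *TM7SF2* differed by 2.44, a fitted value that depends on the prior count, since its 1205Lu-R controls held 4 counts in all. *EBP* differed by 0.44, *PMVK* by 0.41 and *MSMO1* by 0.34. Without 1205Lu-R DMSO replicate 2 the calls for *EBP* (edgeR adjusted p = 0.0931) and *PMVK* (0.0624) were lost, and without 1205Lu-R DMSO replicate 1 that for *MSMO1* (0.137), which DESeq2 did not call either (adjusted p = 0.063).

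Among regulators, *SREBF1* differed by -1.19, *INSIG1* by -0.89, *INSIG2* by -0.45 and *SREBF2* by -0.23, while *SCAP* differed by 0.33. *SREBF2* was not called without 1205Lu-R DMSO replicate 1 (edgeR adjusted p = 0.307) or 1205Lu-R corin replicate 2 (0.194), or with library size only (0.864). *INSIG2* was not called under DESeq2 (adjusted p = 0.0512) or with library size only (edgeR adjusted p = 0.124). The sterol carrier gene *STARD4* differed by -0.41, a call lost without 451Lu-R DMSO replicate 2 (edgeR adjusted p = 0.0602) or 1205Lu-R DMSO replicate 1 (0.0825), or with library size only (0.196).

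Among fatty acid genes, *FASN* differed by -1.44, *SCD* by -0.87, *ACLY* by -0.77 and *ACACA* by -0.18, whereas *ELOVL6*, which fell more in 451Lu-R, differed by 0.54. *ACACA* was not called without 451Lu-R corin replicate 1 (edgeR adjusted p = 0.0551), 451Lu-R corin replicate 2 (0.0565) or 1205Lu-R corin replicate 1 (0.0998), with no filter (0.0526) or under DESeq2 (adjusted p = 0.134).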

How the results depend on the processing

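Counts of called genes that changed side were few. Genes at least 2-fold lower with corin went from 0 to 1 in 451Lu-R with library size only and in 1205Lu-R with no filter, and ran from 0 to 1 in each line when 1 library was left out (451Lu-R corin replicate 2, or 1205Lu-R DMSO replicate 1 or corin replicate 2). In the interaction, an adjusted p under 0.001 left 0 of the 6 higher values and 0 of the 1 past 2-fold, and library size only left 1 of the 4 that were at least 2-fold lower. Library size only left 1 of the 2 genes higher in 1205Lu-R under DMSO. With it the difference between lines changed sign for *SC5D*, to 0.000114, and for *ACACA*, to 0.035, and the median of all genes moved from -0.01 to -0.12 under DMSO.

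Summed corin over DMSO ratios moved with the unit. Per length they were 1.29 for all 29 genes, 1.35 for cholesterol enzymes and 1.04 for fatty acid genes in 451Lu-R, whereas 1205Lu-R gave 0.965, 1.19 and 0.618. With TMM-scaled CPM they were 1.60, 1.88 and 1.29 in 451Lu-R, whereas 1205Lu-R gave 0.888, 1.19 and 0.617. The causes were not tested.

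Of 145 single-gene results (29 genes in 5 comparisons), 128 were called. DESeq2 lost 14 of these calls, library size only lost 14 and gained 5, and leaving out 1 library lost 35 and gained 4 over 695 refitted results, with RLE size factors changing 0. Under DMSO, *HSD17B7* was not called lower in 1205Lu-R without any 1 of the 4 libraries (edgeR adjusted p from 0.0538 to 0.194), nor *FDPS* without 451Lu-R DMSO replicate 2 (0.168), 1205Lu-R DMSO replicate 1 (0.122) or replicate 2 (0.0563), and DESeq2 called neither *FDPS* (0.248) nor *PMVK* (0.0615). Under corin, *MVK* was lost without 451Lu-R corin replicate 1 (0.333), 1205Lu-R corin replicate 1 (0.102) or replicate 2 (0.0793), under DESeq2 (0.229) and with library size only (0.187), and *HSD17B7* was gained without 451Lu-R corin replicate 2 (0.0459). The difference between lines in *MVK* was gained without 451Lu-R DMSO replicate 2 (0.0199) or 1205Lu-R DMSO replicate 1 (0.0289).

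Replicate numbers did not pair the samples. Deviations of same-numbered libraries correlated at -0.0354 in 451Lu-R, 0.0213 in 1205Lu-R, 0.0364 across lines under DMSO and -0.0198 under corin. With the replicate block, members called for corin in 451Lu-R were again 23 higher and 4 lower, for 1205Lu-R 17 and 10, for the interaction 6 and 18, between lines under corin 0 and 24, and under DMSO 2 and 23, where *HSD17B7* was lost (edgeR adjusted p = 0.079).

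Depth limited *TM7SF2*, the 1 member with a group at the floor of 3 counts per library, and 2 libraries per group limited every test.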
